A study of Mus musculus with 23 samples.

Results

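The transcripts described here are 9 genes of the retinal pigment epithelium, Rpe65, Rgr, Lrat, Rdh5, Ttr, Best1, Tyr, Tyrp1 and Pmel, in RNA from sorted retinal microglia. They are 9 of the 35825 genes in the table, were chosen by their symbols with the difference between naïve Spp1 KO and naïve WT libraries in view, and all 9 passed the filter that left 17102 genes for testing. The values that selected them are the 8 naïve libraries, so that contrast is given as a description with no test, and tests are given only for libraries outside it.

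Microglia carrying GFP in the Cx3cr1 locus were sorted as live single GFP+ cells from dissociated mouse retinas, and 23 libraries were sequenced in 6 groups. WT mice were CX3CR1-GFP (Cx3cr1tm1Litt) with intact Spp1, and KO mice were Spp1 KO; CX3CR1-GFP, bred from heterozygous CX3CR1-GFP mice and homozygous for the germline Spp1tm1Blh deletion. How many copies of the GFP allele the mice behind each library carried was not given in the sources used here. Each genotype was sampled without treatment (naïve, 4 WT and 4 KO libraries), 4 weeks after microbeads in the anterior chamber raised the intraocular pressure (IOP, 4 WT and 4 KO) and at day 7 after the optic nerve was crushed (ONC, 3 WT and 4 KO). Several mice of a genotype and treatment were combined before their retinas were dissociated, the study kept male and female mice in balance, and ages were not given. Nothing in the labels says which mice or sorts stand behind a replicate number, so p-values measure the spread between these libraries.

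The retinal pigment epithelium is a single layer of pigmented cells that faces the photoreceptor outer segments and the choroid. It returns vitamin A to the photoreceptors through the visual cycle, in which all-trans retinol is esterified, isomerised and oxidised back to 11-cis retinal, and it carries melanin granules that absorb stray light. Microglia do not run the visual cycle or make melanin. In bulk RNA from sorted cells, fewer cells of a type and less RNA per cell cannot be told apart.

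Reads on genes ranged from 22180480 to 30296094 per library, so 3 reads corresponded to between 2.41 and 4.03 normalized counts, the unit used below (reads divided by the size factor of the library). Values under that level cover counting error only and rest on no more than 3 reads. The targeted gene went against the labels: Spp1 was between 334 and 1518 in naïve WT and between 6.78 and 350 in the libraries labelled KO naïve, but it was 811 and 761 in those labelled KO IOP replicates 2 and 4 and 4750.3, 6811 and 6226 in those labelled KO ONC replicates 1, 2 and 4. Gene level values do not say which exons the reads came from. KO below therefore always means the label, and the KO against WT results are also given without these 5 libraries. Cx3cr1, the gene into which GFP is inserted, also stood apart: it was between 952 and 1233 in the 4 libraries labelled KO IOP, against 26836 to 54612 in WT IOP, 12869 to 46130 in KO ONC, 9417 to 26283 in KO naïve and 44957 to 67878 in WT naïve. Its part in the differences between KO and WT after IOP elevation was not tested. The homeostatic microglia markers (9 genes, P2ry12, Tmem119, Csf1r and others) summed to between 255105 and 1151054 in every library, and 0 pairs of libraries were identical.

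The starts of the members are shown because 8 of the 9 were high in the same libraries and Best1 was not. RefSeq entries on GRCm38.p6 were found for 7 of the 9 genes. Each window held 250 bases before the annotated start, and 3 short motifs were searched on both strands: the E-box CACGTG, the M-box core CATGTG that MITF is known to bind in pigment genes, and the core TAATCC that OTX2 and CRX are known to bind. Capitals mark a match, on either strand, and the strand printed is that of the gene. The first sequence belongs to the isomerase Rpe65, at chr3:159598931-159599174 on the plus strand, the second to the opsin Rgr, at chr14:37049015-37049264 on the minus strand, and the third to tyrosinase, Tyr, at chr7:87493513-87493762 on the minus strand.
Rpe65: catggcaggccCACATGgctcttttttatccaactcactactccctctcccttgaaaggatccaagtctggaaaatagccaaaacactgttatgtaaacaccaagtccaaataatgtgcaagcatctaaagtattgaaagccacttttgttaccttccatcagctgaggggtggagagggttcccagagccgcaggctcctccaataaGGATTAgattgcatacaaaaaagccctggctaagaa
Rgr: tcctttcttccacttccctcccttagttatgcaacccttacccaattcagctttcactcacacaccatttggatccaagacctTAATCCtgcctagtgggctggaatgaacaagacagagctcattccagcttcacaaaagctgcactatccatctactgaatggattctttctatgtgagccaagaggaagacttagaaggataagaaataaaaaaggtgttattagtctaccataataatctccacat
Tyr: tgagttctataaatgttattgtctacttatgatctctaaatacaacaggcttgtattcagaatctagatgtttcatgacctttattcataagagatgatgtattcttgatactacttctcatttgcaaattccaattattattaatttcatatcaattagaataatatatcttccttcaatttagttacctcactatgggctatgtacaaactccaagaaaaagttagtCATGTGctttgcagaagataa
In Rpe65 the match to TAATCC began 42 bases before the RefSeq start and a match to CATGTG began 239 bases before it. In Rgr the match to TAATCC began 167 bases before the start, and in Tyr the match to CATGTG began 21 bases before it. A further match to CATGTG lay 46 bases before the RefSeq start of Tyrp1 and a further match to TAATCC lay 227 bases before that of Best1, both inside exons of the GENCODE annotation, and only these 2 sites are printed, the first at chr4:80834157-80834182 on the plus strand and the second at chr19:10001845-10001870 on the minus strand.
Tyrp1 site: gggagggagtCATGTGctgcctagta
Best1 site: ccagctgtgtTAATCCacctcttggt
Over all 32851 promoter windows of that length, 12.3% held the M-box core, 6.25% the OTX core and 6.02% the E-box, and 0 of the 7 member windows held the E-box. Lrat and Rdh5 held 0 matches to any of the 3 motifs. These matches are a description of letters and not of bound sites.

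Rpe65 and Rgr, both of the visual cycle, had the largest differences between the naïve groups, 5.39 and 4.79 in mean log2 level. Rpe65 (chr3:159599175-159625321), which encodes the retinoid isomerase of the visual cycle, stood at 55.9, 9.81, 32.1 and 5.57 normalized counts in WT naïve replicates 1 to 4. It stood at 3128, 1138, 112 and 1034 in KO naïve replicates 1 to 4. Every library labelled KO lay above every WT library, and KO replicate 3 was the lowest of the 4. The means were 25.8 ± 23.2 and 1353 ± 1269.7 (SD, n = 4 each), a ratio of 52.3.

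Rgr (chr14:37034909-37048964) encodes a light-sensitive opsin of the pigment epithelium and Mueller glia that makes 11-cis retinal. Its values were 242, 99.7, 210.3 and 354 in the WT naïve libraries and 27128, 9177, 463 and 9208 in those labelled KO naïve. Again all 4 KO libraries exceeded the 4 WT libraries, with KO replicate 3 close to the highest WT value. Ttr, transthyretin, which carries retinol-binding protein and thyroxine and is made in the pigment epithelium within the eye, was at 104, 48.2, 117 and 65.9 in WT and at 7221, 2396, 227 and 2782 in KO. The groups did not overlap for Ttr either.

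Lrat (chr3:82892579-82903973), the acyltransferase that makes the retinyl esters on which RPE65 acts, was at 28.4, 9.81, 16.9 and 41.8 in WT naïve and at 1301, 389, 0 and 381 in KO naïve. KO replicates 1, 2 and 4 were over the WT range and KO replicate 3 was at 0, under the 3-read floor. Rdh5 (chr10:128913593-128922888), the 11-cis retinol dehydrogenase, was at 105, 226, 139 and 146 in WT and at 4863, 1733, 104 and 1860.4 in KO. Here KO replicate 3 was under every WT library. Rdh5 shares 720 exonic bases with Bloc1s1 on the same strand, which lay between 455 and 1376 in all 23 libraries, so reads of the pair can be split between them and the lower Rdh5 values are uncertain.

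The melanin genes had smaller mean log2 differences (Tyr 1.86, Tyrp1 2.59 and Pmel 2.14) than Rpe65, Rgr and Ttr. Tyr (chr7:87424771-87493512), tyrosinase, which starts melanin synthesis, was at 207, 194, 171 and 145 in WT naïve and at 3153, 658, 154 and 547 in KO naïve. Tyrp1 (chr4:80834123-80851719), an enzyme of eumelanin synthesis, was at 227, 498, 70.9 and 162 in WT and at 5515, 951, 274 and 1209 in KO. Pmel (chr10:128704195-128720238), the protein of the fibrils on which melanin is laid down, was at 67.5, 495, 285 and 499 in WT and at 7714, 2034, 49.4 and 2312 in KO. In each of these 3 genes KO replicates 1, 2 and 4 lay over every WT library and KO replicate 3 lay within or under the WT range. Pmel shares 105 exonic bases with Dgka and 34 with Cdk2 on the other strand.

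Best1 (chr19:9985174-10001633), which encodes bestrophin 1, a chloride channel of the pigment epithelium, did not follow the others. Its values were 63.9, 55.6, 86.1 and 46.4 in WT naïve and 38.4, 24.9, 104 and 92.6 in KO naïve, and the groups overlapped. Over all 23 libraries Best1 stayed between 7.66 and 194. The annotated end of Best1 lies 75 bases from Fth1, which stood between 39422 and 252087 normalized counts, and its start lies 35 bases from Rab3il1, and the part of such neighbours in the reads counted to Best1 was not tested.

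**Figure D1:**
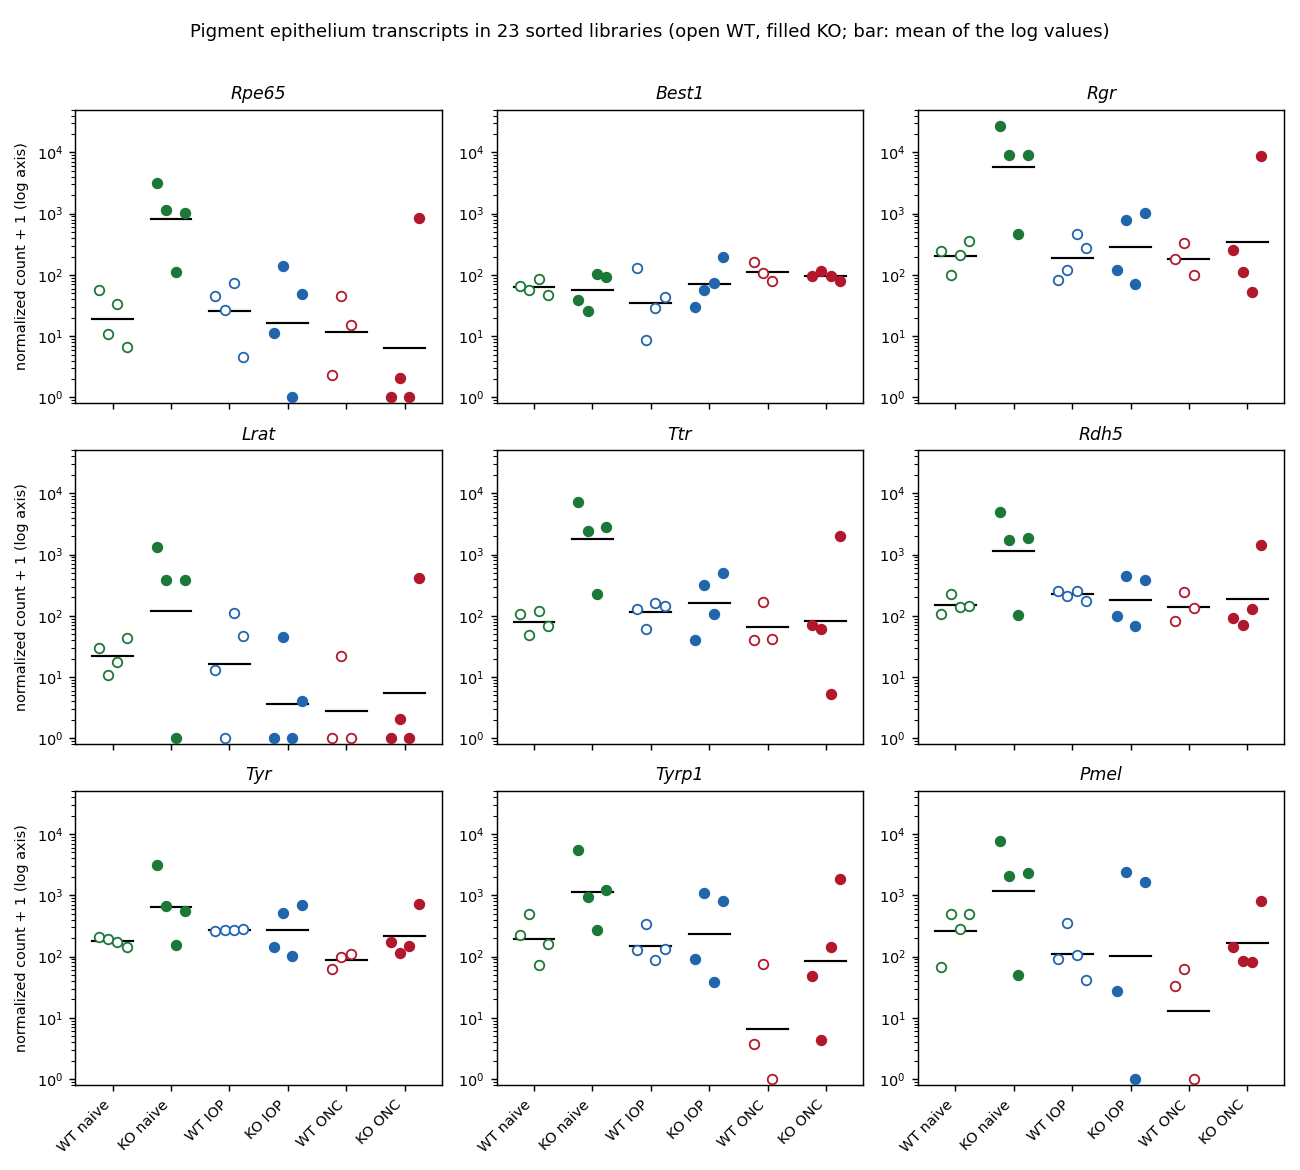
Each panel plots 1 transcript, with the 6 groups on the x axis and the normalized count plus 1 on a log y axis. Each point is a library (open WT, filled KO), in replicate order from left to right within a group, and the bar is the mean of the log values. KO naïve replicates 1, 2 and 4 and KO ONC replicate 4 stand over the other libraries of their groups in every panel except Best1.

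Of the 9 members, 3 had all 4 KO naïve libraries over every WT naïve library, against 4.3% of the 17102 genes tested, and 8 had at least 3 KO libraries over every WT library, against 18.5%. Nothing is read from these counts, because the same libraries selected the members. On the log2(normalized count + 1) scale the difference, KO naïve minus WT naïve, was 5.39 for Rpe65, 4.79 for Rgr, 4.51 for Ttr, 2.92 for Rdh5, 2.59 for Tyrp1, 2.41 for Lrat, 2.14 for Pmel, 1.86 for Tyr and -0.15 for Best1. The median was 2.59, and the median over all genes tested was 0.025. Leaving out KO naïve replicate 3 gave the highest median, 4.07, and leaving out KO naïve replicate 1 gave the lowest, 1.84.

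Compared per kilobase of annotated exons, the order of the members differed between the naïve groups. In WT naïve libraries the mean level per kilobase was highest for Pmel (147), followed by Tyrp1 (84.7), Ttr (70.7), Rdh5 (54.8), Rgr (47.3), Tyr (25.2), Best1 (24.4), Rpe65 (13.4) and Lrat (4.53). In the libraries labelled KO naïve it was highest for Ttr (2661) and Rgr (2402), followed by Pmel (1321), Rdh5 (761.8), Tyrp1 (703), Rpe65 (699.6), Tyr (159), Lrat (96.7) and Best1 (25.2). Pigment genes led the first order, and Ttr and a visual cycle gene led the second. The other groups did not divide by genotype in this. Ttr led in WT IOP (103, Pmel 64.0) and in WT ONC (69.3, Pmel 13.7). Pmel led in KO IOP (437, Ttr 203), and Rgr led in KO ONC (485, Ttr 449). KO naïve replicate 1 weighed most in the KO naïve means, with a members' sum of 60060 against no more than 19426 in the other libraries of its group.

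In the 4 libraries with the highest levels, KO naïve replicates 1, 2 and 4 and KO ONC replicate 4, Rgr, Ttr and Rdh5 kept similar proportions to Rpe65. Rgr over Rpe65 was 8.67, 8.06 and 8.90 in KO naïve replicates 1, 2 and 4, and it was 10.4 in KO ONC replicate 4. Ttr over Rpe65 was 2.31, 2.11 and 2.69 in the 3 naïve libraries and 2.34 in KO ONC replicate 4, and Rdh5 over Rpe65 was 1.55, 1.52, 1.80 and 1.68 in the same order. The pigment genes varied more in these 4 libraries, with Tyrp1 over Rpe65 at 1.76, 0.836, 1.17 and 2.13 and Pmel over Rpe65 at 2.47, 1.79, 2.24 and 0.959. In the WT naïve libraries, where Rpe65 rested on 63, 12, 38 and 6 reads, Rgr over Rpe65 ran from 4.33 to 63.5 and Pmel over Rpe65 from 1.21 to 89.5.

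After IOP elevation the libraries split differently. Tyrp1 was at 125, 335, 85.8 and 133 in WT IOP replicates 1 to 4 and at 91.6, 1090.0, 37.1 and 802 in KO IOP replicates 1 to 4. Pmel was at 91.6, 349, 105 and 40.8 in WT and at 26.5, 2359, 0 and 1619 in KO. KO replicates 2 and 4 were over every WT library for both genes, and KO replicate 3 was under every WT library.

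KO replicates 2 and 4 also lay over every WT library for Rgr, Ttr, Rdh5 and Tyr. Ttr was at 315.4 and 502.8 in them, against at most 160.3 in WT IOP. Rdh5 was at 447.03 and 379.7 against at most 257.4, and Tyr at 513.3 and 687.6 against at most 277.4. KO replicate 3 lay under every WT library for Rgr, Rdh5 and Tyr but not for Ttr. KO replicate 1 lay under every WT library for Ttr (38.7 against at least 60.2), Rdh5 (97.7 against 174.6) and Tyr (144.6 against 263.8). It did so for Pmel too (26.5 against 40.8), but not for Rgr or Tyrp1. Lrat and Best1 did not have KO replicates 2 and 4 over every WT library, and Rpe65 was over every WT library in KO replicate 2 only. It was at 44.9, 26.3, 71.7 and 3.55 in WT IOP and at 10.2, 138, 0 and 47.5 in KO IOP. Rgr was at 80.6, 122, 471 and 278 in WT and at 119, 794, 71.1 and 1029.9 in KO, and Lrat reached 44.2 and 3.03 in KO replicates 2 and 4 against 111 in WT IOP replicate 3. The sum of Tyr, Tyrp1 and Pmel was 2.79 and 2.13 times the sum of Rpe65, Rgr, Lrat and Rdh5 in KO IOP replicates 2 and 4. That ratio was 0.450, 0.293 and 0.326 in KO naïve replicates 1, 2 and 4 and 0.288 in KO ONC replicate 4, and between 1.16 and 3.44 in the WT naïve libraries. Low ratios were not particular to the libraries with high levels. The ratio was 0.371, 0.366 and 0.448 in WT ONC replicates 1 to 3 and 0.703 in KO naïve replicate 3. In WT IOP replicates 1 to 4 it was 1.22, 2.66, 0.506 and 0.899.

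**Figure D2:**
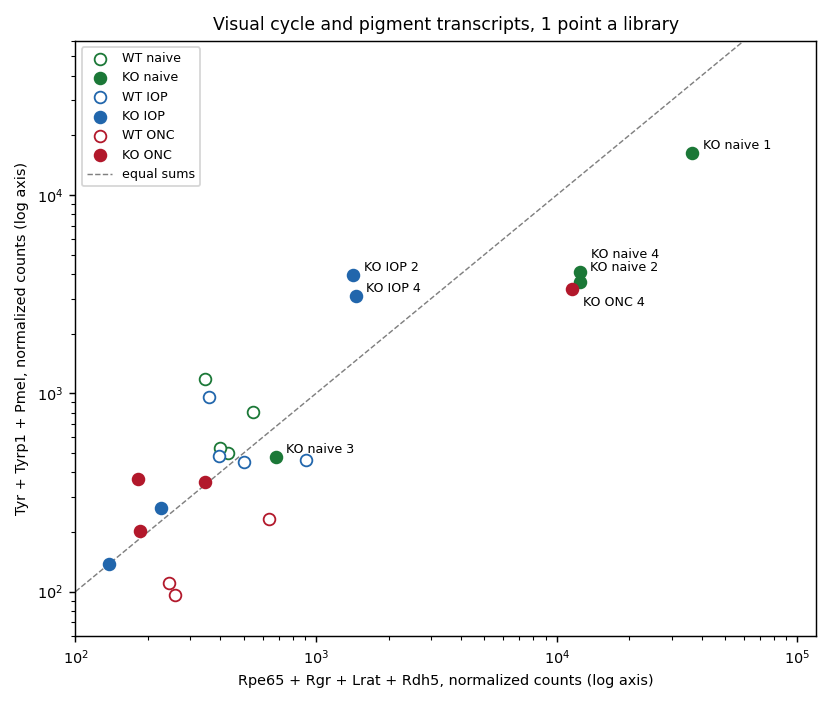
Each point is a library (open WT, filled KO, 3 colours for naïve, IOP and ONC), with the summed normalized counts of Rpe65, Rgr, Lrat and Rdh5 on the x axis and those of Tyr, Tyrp1 and Pmel on the y axis, both log axes, and a dashed line where the sums are equal. KO naïve replicates 1, 2 and 4 and KO ONC replicate 4 lie under the line, and KO IOP replicates 2 and 4 lie over it. WT ONC replicates 1 to 3, WT IOP replicates 3 and 4 and KO naïve replicate 3 also lie under the line, and KO IOP replicate 3 lies just under it.

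KO and WT were then compared after IOP elevation, a contrast that shares no library with the naïve groups. Of the 9 members 0 were called, against 2.11% of all genes tested (limma, with the adjusted p below 0.05 and the log2 fold change beyond 0.58 either way), 0 had an unadjusted p under 0.05 where 3602 of the 17102 genes did, and edgeR and DESeq2 also called 0 members, with 0 under an unadjusted 0.05. The log2 fold changes ran from -2.13 (Lrat, 95% interval -6.47 to 2.20) to 1.03 (Best1, -0.34 to 2.41), 4 of them positive and 5 negative, with a median of -0.01 against -0.03 over all genes. The interval for Rpe65 ran from -4.33 to 3.10 and that for Pmel from -4.05 to 3.82, so large differences in either direction were not detectable with this spread.

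The libraries labelled KO IOP replicates 2 and 4 had both the raised Spp1 and the raised Rgr, Ttr, Rdh5, Tyr, Tyrp1 and Pmel. With the 5 KO libraries whose Spp1 was over 500 left out, 0 members were called, and the fold changes became -4.38 for Pmel, -2.92 for Rpe65, -1.33 for Tyrp1 and -1.03 for Rgr, of which the last 2 had been positive. The part of Spp1 in the members' values was not tested.

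After ONC, 1 library labelled KO stood far over all others for Rpe65, Rgr, Lrat, Ttr and Rdh5. Rpe65 was at 1.34, 44.9 and 14.0 in WT ONC replicates 1 to 3 and at 0, 1.09, 0 and 853 in KO ONC replicates 1 to 4. Rgr was at 179, 333 and 101 in WT and at 254, 112, 51.4 and 8874 in KO. KO replicate 4 was the highest library of the contrast for every member except Best1, and KO replicates 1 to 3 were at or under the 3-read floor for Rpe65 and Lrat.

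Ttr gave the same picture, with 38.9, 167 and 40.9 in WT ONC and 70.6, 60.9, 4.29 and 1996 in KO ONC. Tyrp1 was at 2.68, 73.6 and 0 in WT and at 46.7, 3.26, 145 and 1813 in KO. Pmel was at 32.2, 62.1 and 0 in WT and at 141, 83.8, 79.3 and 817 in KO. Tyr was at 61.7, 97.8 and 110.0 in WT and at 170, 114, 146 and 709 in KO. For Pmel and Tyr every KO library, not replicate 4 alone, lay over every WT library.

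Of the 9 members 0 were called between KO and WT after ONC by limma, against 0.0877% of all genes tested. Both edgeR and DESeq2 also called 0 members, against 2 and 100 of the 17102 genes. An unadjusted p under 0.05 was given to 1 member in limma (1601 of 17102 genes), 2 in edgeR (1445 genes) and 5 in DESeq2 (1738 genes). In limma it was Tyrp1, with a log2 fold change of 3.72 ± 1.60 (SE), a 95% interval of 0.40 to 7.04 and an adjusted p of 0.473 in limma. Its adjusted p ran from 0.0607 to 1.00 over 18 alternatives. Pmel had a similar log2 fold change, 3.71 ± 2.05 (SE), with an adjusted p of 0.606 in limma. Of the 9 estimates 7 were positive and 2 negative, with a median of 0.90 against 0.03 over all genes. Without KO ONC replicate 4 the fold change of Tyrp1 was 2.25, that of Pmel 2.95, and those of Rgr and Ttr turned to -0.67 and -1.19. Leaving out the KO libraries whose Spp1 was over 500 kept KO ONC replicate 3 as the 1 KO library. It was assumed to vary like the other groups, and the fold changes were 4.49 for Tyrp1, 2.65 for Pmel and -3.55 for Rpe65.

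**Figure D3:**
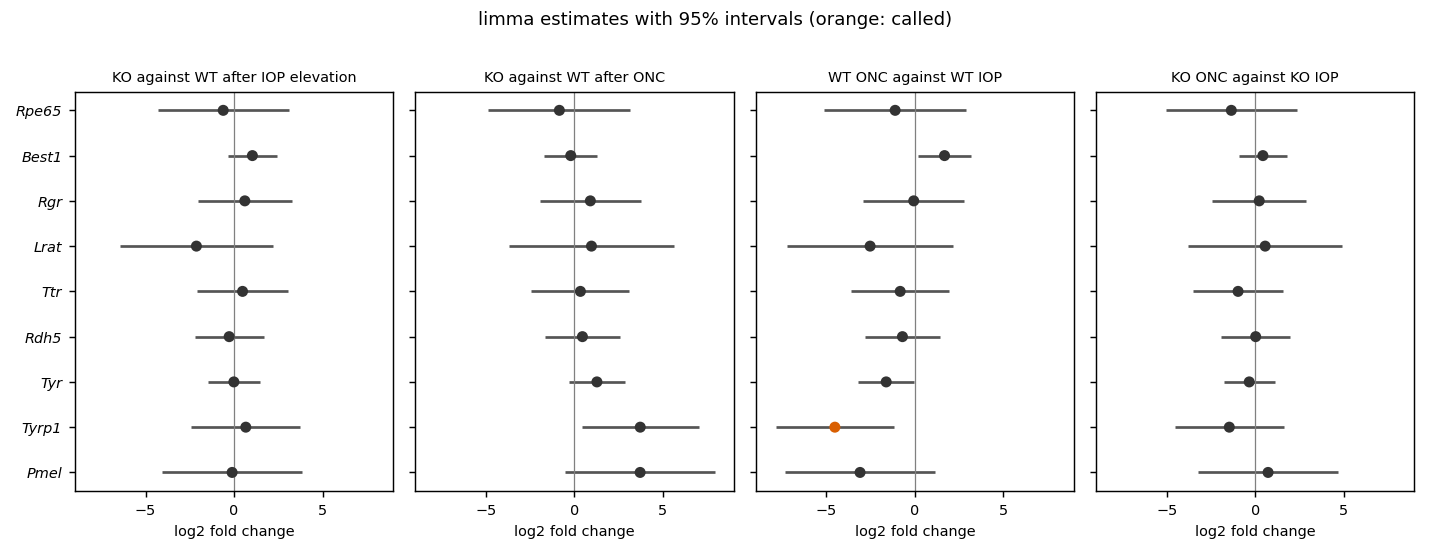
The 4 panels give the log2 fold change of each member (x axis) with its 95% interval from limma in 4 contrasts outside the naïve libraries, and an orange point marks a called gene. Tyrp1 in WT ONC against WT IOP is the 1 called point, and most other intervals span 0.

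Between the injuries, WT ONC was compared with WT IOP. Tyrp1 fell by 4.52 ± 1.60 on the log2 scale (SE, 95% interval -7.84 to -1.20, adjusted p = 0.0465, limma) and was the 1 member called, against 21.7% of all genes tested. Tyr, at 264, 269, 269.7 and 277 in WT IOP and 61.7, 97.8 and 110.0 in WT ONC, had a log2 fold change of -1.62 with an adjusted p of 0.121 in limma. Best1 had a log2 fold change of 1.68 with an adjusted p of 0.0917 in limma. Across the members 8 estimates were lower and 1 higher in ONC, with a median of -1.11 against -0.12 over all genes.

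The call for Tyrp1 did not hold in most other fits. It was lost in edgeR (adjusted p = 0.240), in DESeq2 (adjusted p = 0.157) and in 6 of 7 fits that left out 1 library, and the exception was the fit without WT ONC replicate 2, in which Tyrp1 stood at -6.28 (adjusted p = 0.00668 in limma). Genes of other retinal cells moved with it: 7 of 10 rod genes and 3 of 5 Mueller glia genes were also called lower in WT ONC, as were 9 of 9 lens genes, whose sum was between 33398 and 240861 in WT IOP and between 403 and 531 in WT ONC. Their part in the lower Tyrp1 was not tested.

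In the libraries labelled KO, ONC was compared with IOP in the same way. Of the 9 members 0 were called, against 2.41% of all genes tested, and 0 had an unadjusted p under 0.05 in limma (2577 genes did), in edgeR or in DESeq2. The difference between the genotype effects after ONC and after IOP elevation was likewise called for 0 members, against 0.234% of all genes tested, with 0 at an unadjusted p under 0.05 (2466 genes in limma), and edgeR and DESeq2 called 0 members in both, with 0 under an unadjusted 0.05. Without the 5 KO libraries with Spp1 over 500, KO ONC replicate 3 is the 1 KO ONC library left, so neither comparison is judged from that fit. With all libraries kept, the estimates of the difference between the genotype effects ran from -1.24 (Best1) to 3.82 (Pmel, 95% interval -1.97 to 9.62).

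Ordered by the mean log2 level of the 6 groups, KO naïve came first for 8 of the 9 members and next to last for Best1. The gap from KO naïve to the next group was larger than the larger of both SDs for Rpe65 (4.99), Rgr (4.07) and Ttr (3.49), and smaller than it for the other 5. Below the first place, neighbouring groups were separated by more than their larger SD in only 2 instances, Tyr from WT naïve to WT ONC and Tyrp1 from KO ONC to WT ONC. WT ONC was the lowest group for 7 members, KO ONC for Rpe65 and WT IOP for Best1.

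Other genes of the pigment epithelium followed the members in the naïve libraries, in which these counts are a description. Of 20 further pigment epithelium genes, 15 had at least 3 KO naïve libraries over every WT naïve library, with a median log2 difference of 1.60. The largest differences were those of Slc16a8, the lactate transporter MCT3 of the basal membrane (4.39), Slc6a20a, an imino acid transporter (4.20), and the keratin Krt8 (3.70). Slc16a8 was at 8.88, 0.817, 5.07 and 33.4 in WT naïve and at 2159, 781, 4.84 and 72.2 in KO naïve, so KO replicate 3 lay within the WT range. Serpinf1, which encodes the pigment epithelium-derived factor, was the 1 gene of this list that was lower, by 0.83 on the log2 scale.

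Among 12 other melanosome genes 8 had at least 3 KO naïve libraries over every WT library, with a median difference of 2.77. The largest were those of Oca2, a melanosomal transporter (3.66), Mlana, a melanosomal membrane protein (3.16), and Gpr143, the receptor mutated in ocular albinism (3.06). Atp7a, Rab27a and Rab38 were lower on average, by 0.97, 0.83 and 0.73 on the log2 scale. Dct, the dopachrome tautomerase, which is named here after its values were seen, was at 562, 1434, 268 and 435 in WT naïve, at 24345, 4615, 487 and 4715 in KO naïve and at 476, 5805, 101 and 5512 in KO IOP replicates 1 to 4, the same libraries in which Tyrp1 and Pmel were high.

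The 10 other visual cycle and retinoid genes were mixed, with 6 raised in at least 3 KO naïve libraries. Stra6, the receptor for retinol-binding protein (4.07), Rrh, the opsin peropsin (2.33), and Rdh10, a retinol dehydrogenase (2.32), had the largest differences, and Rbp4, at 0 to 17.7 in the naïve libraries, the lowest (-0.62). Of 8 transcription factors known from the pigment epithelium 4 were raised in at least 3 KO libraries. Tfec differed most (-3.60), at 33.7, 52.3, 47.3 and 53.9 in WT naïve and 10.6, 9.65, 0 and 0.850 in KO naïve, followed by Lhx2 (2.20) and Sox9 (1.63). Mitf, the regulator of pigment cell genes that microglia also express, was at -0.23 and stayed between 238 and 700.2 in all 23 libraries.

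**Figure D4:**
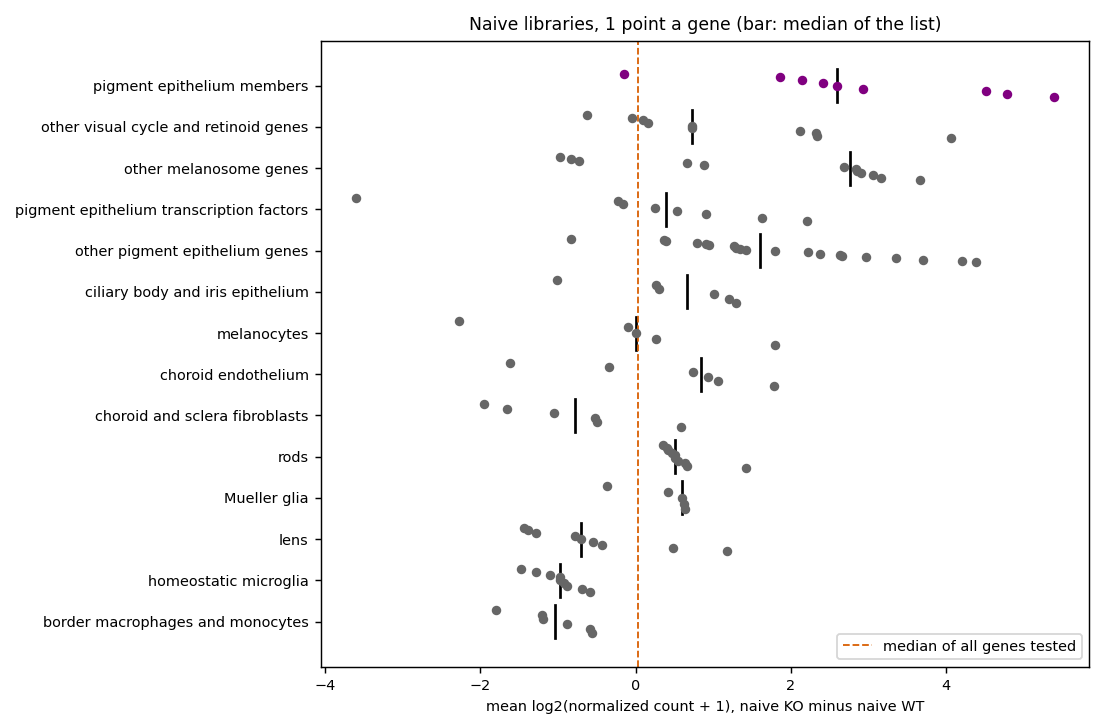
Each point is a gene and each row a list, with the difference in mean log2(normalized count + 1) between KO naïve and WT naïve on the x axis, a black bar at the median of the list and a dashed line at the median of all genes tested, 0.025. The members and the other pigment epithelium and melanosome genes extend furthest to the right, and the microglia and macrophage lists lie to the left.

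Markers of other cells moved too. The 10 rod genes (Sag, Gnat1, Pde6b and others) summed to between 357334 and 433850 in WT naïve and to 678461, 635928, 287485 and 726081 in KO naïve replicates 1 to 4, and all 10 had at least 3 KO libraries over every WT library, with a median difference of 0.50. The homeostatic microglia genes summed to between 623257 and 837991 in WT naïve and to 255105, 285644, 834377 and 322225 in KO naïve, with a median difference of -0.97. The border macrophage and monocyte genes had a median difference of -1.04. Thus KO naïve replicate 3, the library with the lowest pigment epithelium values of its group, also had the lowest rod sum and the highest microglia sum of the 4.

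In KO ONC replicate 4 the rod sum was 241537, within the 209561 to 302189 of its group, and the homeostatic microglia sum of 687777 was the lowest of the 4, the others being up to 956504. The members' sum there was 16992 against 561 to 868 in the other KO ONC libraries. In KO IOP replicates 2 and 4 the members summed to 5756 and 5265, against 1133 to 1559 in WT IOP. Their rod sums of 315165 and 305165 were under every WT IOP library (388257 to 594879). The rod sums of KO IOP replicates 1 and 3, 388229 and 227389, were under that range too, so low rod sums were not particular to replicates 2 and 4. The part of either list in the members' values was not tested.

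Cells next to the pigment epithelium were checked in the same way. Of 5 melanocyte markers Pax3 was at 0 in all 23 libraries and Sox10 at 0 in 18. Sox10 was at 44.9 and 32.17 in KO naïve replicates 1 and 2 and at 12.035 in KO ONC replicate 4, all libraries with high levels of the members. It was at 0 in KO naïve replicate 4 and at no more than 4.643 elsewhere. Ednrb, Kit and Mc1r had 0 KO naïve libraries over every WT library, and 0 of the 5 markers had at least 3. The part of melanocytes in the members' values was not tested. The ciliary body and iris genes (6 with a row) summed to at most 1190.3, in KO naïve replicate 1, and 0 of 6 had at least 3 KO naïve libraries over every WT library. Their sum was 297 and 377 in KO IOP replicates 2 and 4 against 42.8 and 7.22 in replicates 1 and 3 and 63.2 to 296 in WT IOP, and it was 363 in KO ONC replicate 4 against 4.35 to 31.1 in the other 3. Its part in the members' values was not tested. The 6 fibroblast genes of choroid and sclera had 0, with a median difference of -0.78, and the 6 endothelial genes had 3, with a median of 0.84. The 9 lens genes had 1 of 9 and a median of -0.70. In KO naïve replicate 1 the fibroblast sum, 2873, and the endothelial sum, 8070.2, were the highest of all 23 libraries. In KO naïve replicates 2 and 4 the fibroblast sums, 467.2 and 531.2, lay within the WT naïve range. The endothelial sums there were 3250.6 and 3953.7, against no more than 3668.2 in WT naïve. The part of these cells in the members' values was not tested.

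**Figure D5:**
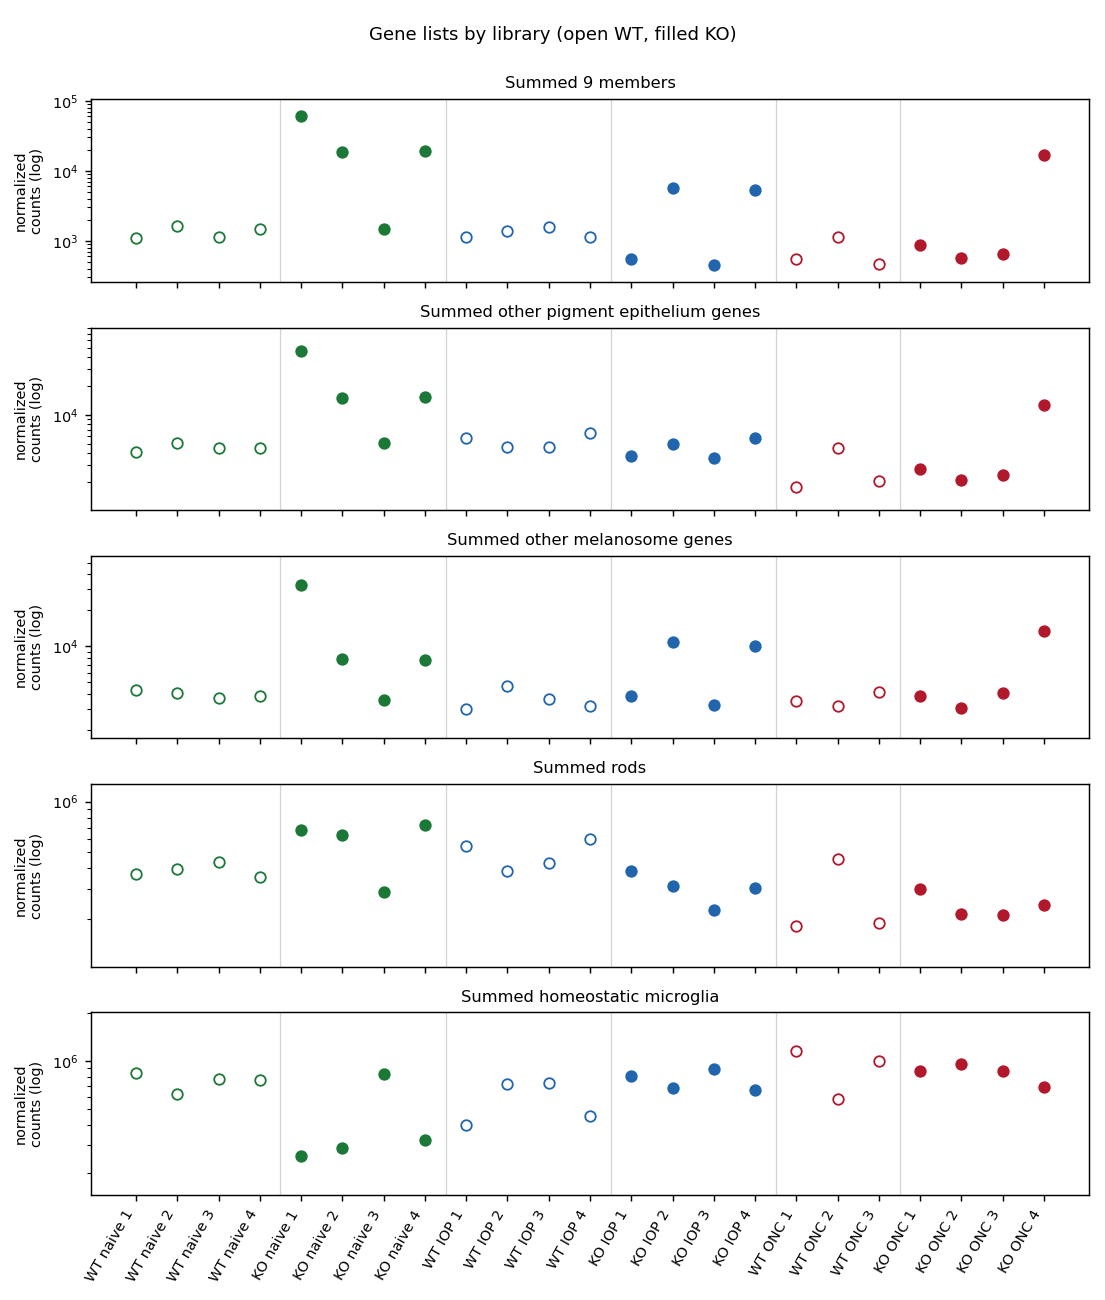
The 5 panels plot, for each of the 23 libraries on the x axis (open WT, filled KO, grey lines between groups), the summed normalized counts on log y axes of the 9 members, 20 other pigment epithelium genes, 12 other melanosome genes, 10 rod genes and 9 homeostatic microglia genes. KO naïve replicates 1, 2 and 4 are high for the first 4 lists and low for the fifth, whereas KO IOP replicates 2 and 4 lie over every WT IOP library for the members and the melanosome genes and within the WT IOP range for the other pigment epithelium genes.

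Between KO and WT the pigment epithelium lists gave few calls, and so did all genes tested. Of all genes, limma called 2.11% after IOP elevation and 0.0877% after ONC. After IOP elevation 0 of 20 other pigment epithelium genes and 0 of 12 melanosome genes were called by limma, with 1 and 2 at an unadjusted p under 0.05, and after ONC 0 and 0, with 0 and 0. Of the 10 other visual cycle genes 1 was called lower after IOP elevation and 0 after ONC. The 9 lens genes were all called lower in KO after IOP elevation. Of the transcription factors Otx2, which retinal neurons also express, was lower in KO after IOP elevation (log2 fold change -1.28, adjusted p = 0.0295, limma). After ONC the 1 transcription factor called was Pax6, a factor of amacrine and ganglion cells as well, which was higher in KO (1.31, adjusted p = 0.0129, limma), and Lyve1, a border macrophage gene, was higher too (2.97, adjusted p = 0.00908, limma).

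Between the injuries more list genes were called, and so were more genes in all. In WT ONC against WT IOP limma called 21.7% of all genes tested, 2056 of the 17102 lower and 1659 higher. In WT ONC against WT IOP, 3 of 20 pigment epithelium genes were called lower, Krt18 (-1.82), Myrip (-1.76) and Car14 (-1.57), beside 0 of 12 melanosome genes. Of the 8 transcription factors 4 were called lower, Lhx2 (-2.90), Pax6 (-1.63), Otx2 (-1.24) and Crx (-1.20), a factor of photoreceptors. Of the 10 other visual cycle genes 2 were called lower, among them Crabp1, which binds retinoic acid (-1.63), and Dhrs3, a retinaldehyde reductase, was called higher (0.72). Of the 6 border macrophage genes 4 were also called lower. In KO ONC against KO IOP, Pax6 was the 1 transcription factor called (-0.91, adjusted p = 0.0225, limma), where 2.41% of all genes tested were called.

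The 10 genes whose log2 values were most like the mean log2 value of the 9 members over the 23 libraries were Slc6a20a (Pearson r = 0.949), Slc4a5 (0.929), Ptgds (0.916), Pon1 (0.902), Upk3b (0.900), Enpp2 (0.894), Slc24a5 (0.878), Tspan10 (0.871), Igfbp5 (0.870) and Cpxm2 (0.863). Of these, 3 were on the list of other pigment epithelium genes and 2 on that of melanosome genes. The points share library and depth, the few libraries with high values carry the coefficients, and no p is given. Slc6a20a, a transporter of imino acids, was at 3703, 827, 87.2 and 1109.95 in KO naïve replicates 1 to 4 and at 1085 in KO ONC replicate 4, and at no more than 142 in the other 18 libraries. Ptgds, prostaglandin D synthase, was at 42663, 10242, 807 and 12137 in KO naïve, at 752, 8463, 272 and 8005 in KO IOP and at 16546 in KO ONC replicate 4, so it was also high in KO IOP replicates 2 and 4.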

How the data were processed

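RNA-seq of sorted retinal microglia was taken from 1 table of 35825 genes and 23 libraries. The authors sequenced paired-end reads, quantified them with salmon against GRCm38 and summed them per gene, while the submitters' processing notes name STAR and DESeq2. The deposited values are normalized counts, a signal made by dividing whole reads by a size factor of each library: all values up to 1000 reads were whole within 0.01 read, so reads were recovered for count models. Which aligner made this table was not settled.

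The members and gene lists were chosen with earlier results of these data known. After adding 1 and taking log2, normalized counts were compared in limma 3.58.1 under R 4.3.3 (eBayes with an intensity trend, 6 groups, 0 covariates) for the 17102 genes with at least 10 normalized counts in at least 3 libraries. A gene was called where its p, adjusted by Benjamini-Hochberg over all genes tested, was below 0.05 and its log2 fold change exceeded 0.58 in size, and tests were two-sided. These fold changes understate those of low genes. edgeR 4.0.16 and DESeq2 1.42.0 on recovered reads, other pseudocounts, filters and scalings, a replicate block and left-out libraries were the alternatives, and the fits were tested on simulated data. Named were every member, genes of the lists called in a tested contrast (up to 10 by size in each, but markers of other cell types are mostly given as counts), up to 3 genes per pigment epithelium list by naïve difference, the 10 genes most correlated with the members' mean and adjoining genes. Positions are those of GENCODE M21, to which 34732 gene IDs matched, and promoters are those of RefSeq. Some genes of the lists are not reported here by name.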

Additional observations from a re-analysis of the deposited data

Results flagged for a closer look

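In the group of 4 libraries labelled KO ONC, replicate 4 lay far from the others for 2 members on the log2 scale. Rpe65 was at 853 normalized counts there and between 0 and 1.09 in the other 3, a gap of 0.891 of the whole range. Lrat was at 416 there and between 0 and 1.09 in the others, a gap of 0.878 of the range, and both gaps exceed Dixon's 95% critical value for 4 samples. In all, 45 pairs of a member and a group of 4 libraries were examined; chance flags about 1 in 20, or about 2, which is the number found, and the members are not independent of each other within a library. Rod and microglia sums of that library are given above, and the part of other cells in its values was not tested.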

How the results depend on the processing

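With a pseudocount of 5, no filter, a replicate block, the compared groups alone, edgeR or DESeq2, 0 members were called in WT ONC against WT IOP in place of 1, and over the fits that left out 1 library the count was 0 to 1. The log2 fold change of Tyrp1 there ran from -6.28 to -3.17 over those fits, and Best1 was called under quantile normalization (2.19, adjusted p = 0.0432) and without WT IOP replicate 1 (2.32, adjusted p = 0.0277), both in limma. In the other 4 tested contrasts 0 members were called under every alternative run, including the one chosen after seeing the data. No member was called in KO against WT, but several uncalled estimates turned sign, and the cause was not tested. After IOP elevation, edgeR gave 0.42 for Rpe65, 0.14 for Rdh5, 0.42 for Tyr and 2.78 for Pmel, DESeq2 gave 0.42, 0.14, 0.42 and 2.77, quantile normalization gave 0.029 for Rpe65, 0.094 for Tyr and 0.36 for Pmel, and a pseudocount of 5 gave 0.45 for Pmel. After ONC, Rpe65 stood at 3.38 in edgeR, 3.41 in DESeq2 and 0.063 with a pseudocount of 5, and Ttr at -0.12 with the replicate block. Without the 5 KO libraries with Spp1 over 500, an alternative chosen after seeing the data that leaves 1 KO ONC library, assumed to vary like the others, Rgr (-1.03), Ttr (-0.83) and Tyrp1 (-1.33) turned after IOP elevation, and Rgr (-1.80), Lrat (-1.48), Ttr (-3.63) and Rdh5 (-0.071) after ONC. Over the fits without 1 library, the ranges after IOP elevation were -1.64 to 0.73 for Rpe65, -0.0026 to 1.28 for Rgr, -0.069 to 1.15 for Ttr, -0.71 to 0.20 for Rdh5, -0.47 to 0.46 for Tyr, -0.075 to 1.54 for Tyrp1 and -1.63 to 2.11 for Pmel. After ONC they were -3.20 to 0.13 for Rpe65, -0.45 to 0.058 for Best1, -0.67 to 1.80 for Rgr, -1.13 to 2.44 for Lrat, -1.19 to 1.66 for Ttr and -0.53 to 0.91 for Rdh5. Same-numbered libraries did not deviate together (correlations -0.231 to 0.0621), so the replicate numbers were taken as names. The naïve median stayed between 1.84 and 4.07. By Spearman correlation 3 of the 10 most similar genes were shared. Values near the 3-read floor limit Rpe65 and Lrat in some libraries.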
